A study of Mus musculus with 30 samples.

Results

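Mouse embryonic stem cells (ESCs) kept in 2i/LIF were compared after 20 passages (P20) and after 10 passages (P10), by RNA-seq of 3 libraries at each passage. These 6 libraries are among 18 of a passage experiment and 30 of the series, and every gene that passed a filter on low counts was included. That was 16054 of the 55487 genes in the table, of which 746 lie on chromosome 6, 833 on chromosome 8 and 14463 on other chromosomes, and the genes of chromosomes 6 and 8 were kept apart from the rest. The remaining 12 tested genes had no position in the annotation used. All libraries came from E14tg2a, a wild-type mouse ESC line, and carried no transgene or deletion per the labels. The parallel cultures of the passage experiment were kept in Serum/LIF or in EMM, which is Serum/LIF with galactose in place of glucose and pyruvate, also for 10 or 20 passages. The study's methods describe the replicates as coming from independent experiments, and the labels give the same line for all of them, so no other line shows whether the changes are particular to E14tg2a. The study followed how culture medium and metabolism set ESC identity, and the comparison described here asks what differs in 2i/LIF between the earlier and the later passage.

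2i/LIF combines LIF with CHIR99021 and PD03, a pair of kinase inhibitors. CHIR99021 blocks glycogen synthase kinase, which stabilises beta-catenin and turns on targets of the Wnt pathway, and PD03 blocks MEK, the kinase above ERK. LIF acts through Stat3 to sustain the factors of naive pluripotency. Prolonged growth in 2i/LIF is known for low DNA methylation, and long-term ESC cultures in general are known to acquire changes in chromosome number. The composition of the 2i/LIF medium is given in the study's methods for its proteome experiment, and for 2i/LIF culture in general the methods refer to an earlier publication, which was not used here.

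The 6 libraries held between 6944918 and 21090069 estimated counts, with the lowest total in replicate 1 at P20. Transcripts of the mitochondrial genome took 1.47% and 1.04% of the counts in replicate 1 at P10 and P20 and between 2.28% and 3.39% in the other 4 libraries, so both replicate 1 libraries stood apart on this measure. All 8 ESC markers were present, with a summed level of 66664 to 69762 normalized counts at P10 and of 73572 to 78868 at P20. A normalized count is the count scaled to a common effective library size, and differences are given as log2 fold changes of P20 over P10 with their standard errors (SE). Markers of other cell types were lower in sum than the ESC markers. Mesendoderm markers summed to 687 to 909 at P10 and to 202 to 237 at P20, of which T had means of 767 and 107. Primitive endoderm markers summed to 36.3 to 47.1 at P10 and to 36.4 to 44.3 at P20. The sums for trophectoderm, neural and fibroblast markers are given with those lists. In these bulk samples, fewer cells of a type and less RNA per cell cannot be told apart. The P10 and P20 libraries were compared across an interval that also separates harvests, so passage and occasion of harvest cannot be told apart.

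Between P10 and P20 in 2i/LIF, 571 genes rose (3.56% of the tested genes) and 1058 fell (6.59%), counting genes with an absolute log2 fold change above 1 and an edgeR adjusted p under 0.01. With the adjusted p alone, 2111 genes were higher (13.1%) and 2435 lower (15.2%). Every P20 library lay above every P10 library for 3203 genes (20%) and below for 3569 (22.2%). In Serum/LIF, 188 genes rose (1.17%) and 108 fell (0.673%) between the same passages, and in EMM 898 rose (5.59%) and 473 fell (2.95%). With the adjusted p alone, 3.16% of genes were higher and 2.85% lower in Serum/LIF, and 13.3% higher and 11.9% lower in EMM. The log2 fold change itself differed between 2i/LIF and Serum/LIF for 1496 genes (9.32%) and between 2i/LIF and EMM for 2654 genes (16.5%), by the interaction of passage and medium in edgeR with the same thresholds. With the adjusted p alone these shares were 20% and 32.3%. Single genes below are called by the adjusted p alone. SE values rest on 3 libraries per group and on a spread estimated over all 18 libraries of the passage experiment.

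Genes of chromosomes 6 and 8 moved differently from the rest. Among them 112 rose and 65 fell, whereas on other chromosomes 459 rose and 993 fell. With the adjusted p alone, 305 genes of chromosome 8 (36.6%) and 173 genes of chromosome 6 (23.2%) were higher at P20, against 1632 genes of the other chromosomes (11.3%). The opposite held for lower genes, which were 5.28% of chromosome 8, 9.25% of chromosome 6 and 16.1% of the rest. The chromosomes were singled out with earlier results of these data known, so these shares are a description.

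The median log2 fold change was 0.32 on chromosome 8, 0.18 on chromosome 6 and -0.04 over the other chromosomes. With no filter on low counts 31372 genes were fitted, with a median of 0 over all of them. The medians were then 0.22 on chromosome 8 and 0 both on chromosome 6 and over the others. Among genes with a mean of at least 50 normalized counts the median of chromosome 6 was 0.21, so its value depends on how low genes are treated. Of the genes tested on chromosome 8, 72.4% had a positive log2 fold change, as did 60.5% on chromosome 6 and 46.5% elsewhere. The next highest median in 2i/LIF was 0.05 on chromosome 11, and the lowest among the autosomes and X was -0.14 on chromosomes 18 and X. In Serum/LIF the medians were -0.06 on chromosome 8 and 0.01 on chromosome 6, and in EMM they were 0.09 and 0.07. Neither chromosome stood above all others in Serum/LIF, whereas in EMM the median of chromosome 8 was the highest among the autosomes and X.

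**Figure D1:**
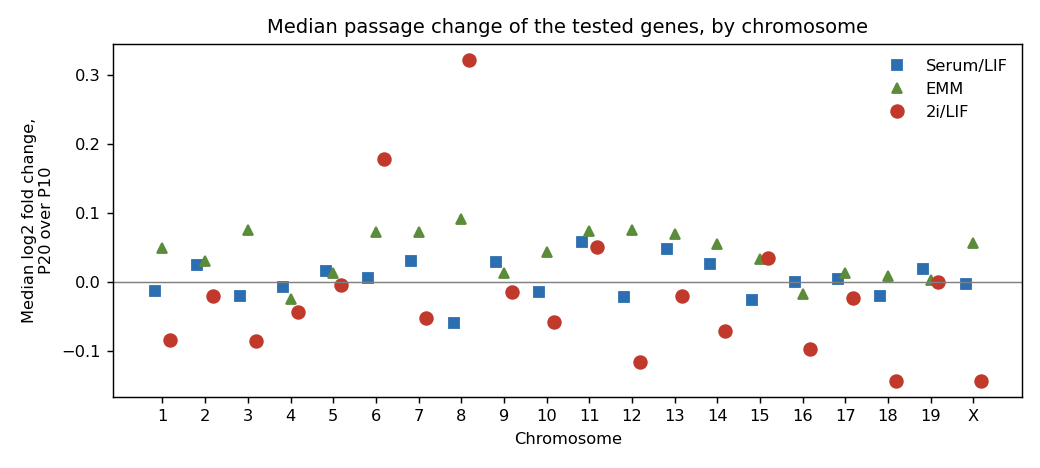
Median log2 fold change (vertical axis) of the tested genes of each chromosome (horizontal axis), P20 over P10, with a point for each medium. In 2i/LIF chromosomes 8 and 6 lie at 0.32 and 0.18, above every other chromosome shown, and in Serum/LIF and EMM all chromosomes shown, the autosomes and X, lie between -0.06 and 0.09.

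Set against Serum/LIF at the same passage, chromosome 8 genes had a median log2 difference of 0.01 at P10 and of 0.45 at P20. For chromosome 6 the median differences were 0.11 and 0.33. Both chromosomes were thus further from Serum/LIF at the later passage.

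Single libraries showed the same order. Each library was set against the P10 libraries, a P10 library against the other P10 libraries. The median log2 difference of chromosome 8 genes was 0.34, 0.32 and 0.32 in the 3 P20 libraries and 0.13, -0.05 and -0.08 in the 3 P10 libraries. For chromosome 6 it was 0.16, 0.21 and 0.12 at P20 and 0.08, -0.07 and 0.00 at P10. The other chromosomes lay at -0.08, -0.02 and -0.03 at P20 and at -0.04, 0.01 and 0.04 at P10. Every P20 library was above every P10 library on both chromosomes, and replicate 1 at P10 lay nearest to P20 on both. Taken as the difference from the other chromosomes within a library, chromosome 8 shifted by 0.37 between passages and chromosome 6 by 0.20. In Serum/LIF the same shifts were -0.07 and -0.02, and in EMM 0.04 and 0.01. These sizes are given as a description, since the chromosomes were chosen with results of these data known and 3 against 3 libraries cannot give an exact two-sided permutation p below 0.1. Leaving out both replicate 1 libraries, a choice made after the values were seen, gave a median of 0.37 for chromosome 8 in 2i/LIF.

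**Figure D2:**
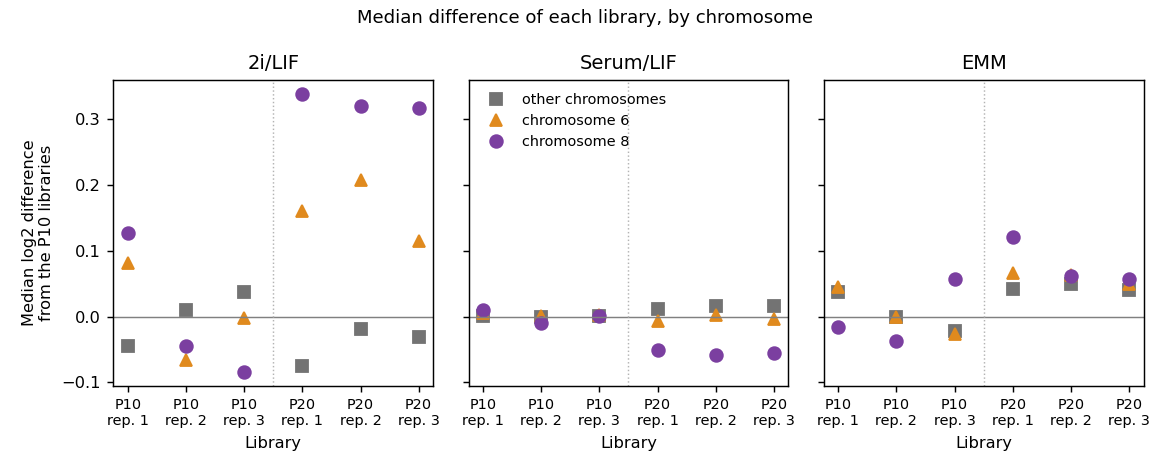
Median log2 difference from the P10 libraries of the same medium (vertical axis) in each library (horizontal axis), for genes of chromosome 6, chromosome 8 and all other chromosomes; a P10 library is set against the other P10 libraries. In 2i/LIF the chromosome 8 points of P20 lie at 0.32 to 0.34, and the P10 replicate 1 library lies at 0.13.

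The higher level extended along the whole of chromosome 8 and along part of chromosome 6. Among genes with a mean of at least 50 normalized counts, all 13 windows of 10 Mb on chromosome 8 that held at least 10 genes had a positive median, between 0.24 and 0.65. Of 218 such windows on the other chromosomes 79 were positive, and they ranged from -0.46 to 0.27. On chromosome 6 the 197 genes before position 80 Mb (mm10) had a median of 0.03 and the 312 genes from there to the end had 0.33. The division at 80 Mb was chosen after the values were seen and was not tested.

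The P20 libraries differed from each other on chromosome 6. From 80 Mb onwards their medians were 0.35, 0.37 and 0.19, against 0.35, 0.35 and 0.36 over the whole of chromosome 8. Replicate 3 lay at 0.05, 0.00 and 0.02 in the windows starting at 80, 90 and 100 Mb, where replicates 1 and 2 lay between 0.18 and 0.38, and at 0.34, 0.50 and 0.46 in the windows starting at 120, 130 and 140 Mb. Before 80 Mb replicate 1 was the lowest, with medians of -0.12, 0.07 and 0.09 in replicates 1 to 3. A library mean on chromosome 6 therefore joined libraries with unlike profiles. What underlies the shift of either chromosome was not tested.

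**Figure D3:**
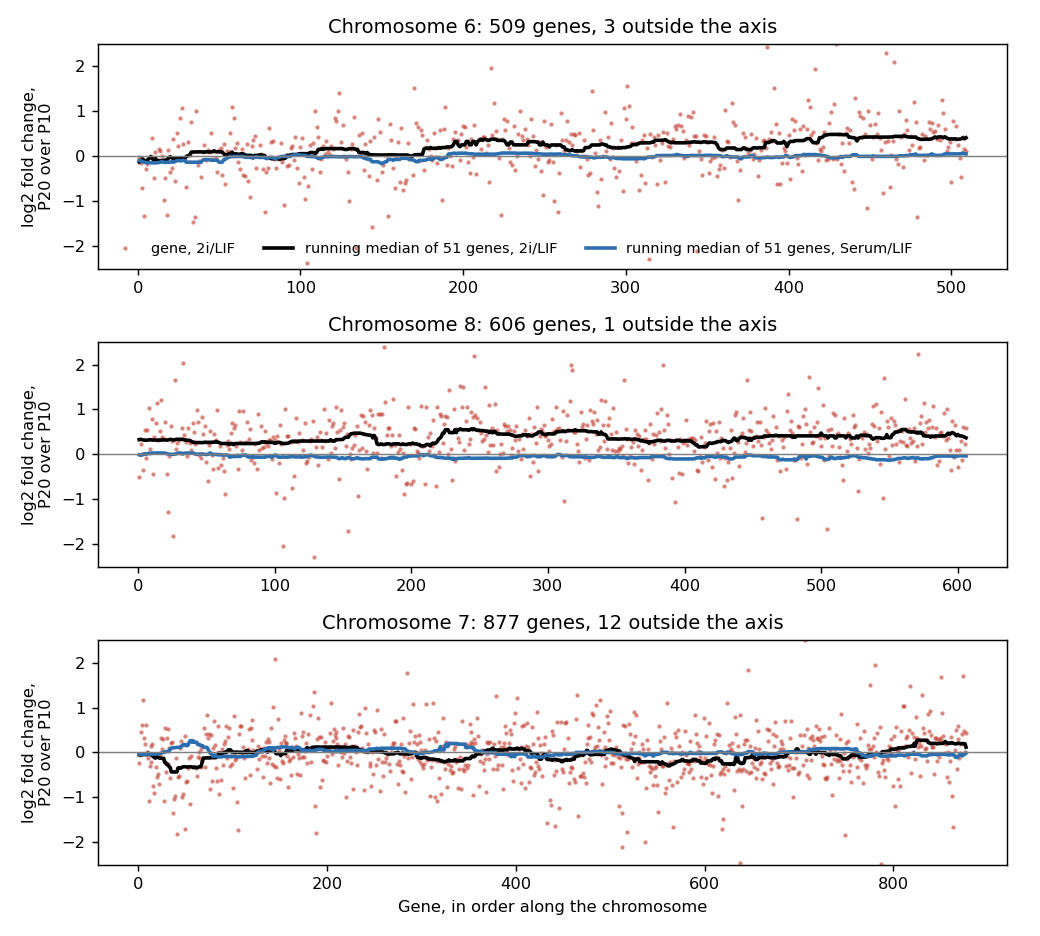
Log2 fold change of each gene in 2i/LIF, P20 over P10 (points, vertical axis), against its order along chromosomes 6, 8 and 7 (horizontal axis), for genes with a mean of at least 50 normalized counts, with the running median of 51 genes in 2i/LIF (black) and Serum/LIF (blue). The black line stays above 0 along chromosome 8, lies above 0 along the later part of chromosome 6 and crosses 0 repeatedly on chromosome 7; 3, 1 and 12 genes lie outside the axis.

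The genes of this paragraph are the most abundant of both chromosomes that did not pass the fold threshold, so small changes follow from that choice. Ldhb, an abundant gene of chromosome 6 that fell by 1.35, is given with the glycolysis genes. Cdh1, the E-cadherin gene of chromosome 8, was at 12340, 12193 and 12483 normalized counts at P10 and at 15253, 15736 and 17092 at P20. The groups did not overlap, and Cdh1 rose by 0.38 ± 0.06 (SE, n = 3 per group; edgeR adjusted p = 0.00017). Hnrnpf and Serbp1 of chromosome 6, which encode RNA-binding proteins, each rose by 0.31 ± 0.08. Cnot1 of chromosome 8, the scaffold of the CCR4-NOT deadenylase, rose by 0.32 ± 0.09, a call lost when any of 5 of the 6 libraries was left out. Hnrnpf and Serbp1 each lost their call in 4 of 6 such fits, and all 4 genes, Cdh1 included, lost it when only the 2i/LIF libraries were fitted. Rpl13, a ribosomal protein gene of chromosome 8, had a log2 fold change of 0.19 ± 0.14 and overlapping groups. The glycolytic enzyme gene Gapdh had -0.06 ± 0.11, Hnrnpa2b1 had 0.17 ± 0.08, and Gm8730, a gene model of chromosome 8, had -0.37 with overlapping groups, a value that passed the test without replicate 1 of P20 and under the replicate block.

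The largest rises on the 2 chromosomes were those of Tuba3a, A2m, Cpe, AI854703 and Lockd. Tuba3a, an alpha-tubulin gene of chromosome 6 that is expressed in the testis, was at 466, 347 and 501 normalized counts at P10 and at 2493, 2511 and 2440 at P20. It rose by 2.49 ± 0.14 (edgeR adjusted p = 4.6e-10), against 1.42 in Serum/LIF. Cpe on chromosome 8, which encodes the prohormone-processing carboxypeptidase E, went from 149, 84.2 and 100.2 to 569, 466 and 694, a rise of 2.39 ± 0.20. All libraries of P20 exceeded all of P10 for both genes. A2m (2.43 ± 0.28) encodes a protease inhibitor, and its 3 P20 libraries spread from 277 to 679. AI854703 rose by 2.32, and Lockd, a long noncoding RNA downstream of Cdkn1b, by 2.30, a call lost when only the 2i/LIF libraries were fitted. Replicate 1 held the highest P20 value of Lockd, 266 against 82.0 and 96.7.

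Falls also occurred on these chromosomes. Ccdc136 of chromosome 6 went from 634, 700 and 744 normalized counts to 58.7, 119.7 and 61.3 and fell by 3.03 ± 0.18 (edgeR adjusted p = 9.5e-10). Pdk4 of chromosome 6, a kinase that restrains pyruvate dehydrogenase, went from 174, 225 and 266 to 18.8, 17.0 and 24.9 and fell by 3.45 ± 0.24. Both sets of P20 libraries lay far below P10. Adgrg5, an adhesion G protein-coupled receptor gene of chromosome 8, fell by 3.87 ± 0.45, the small GTPase gene Rasd2 by 2.90 ± 0.30 and the intracellular receptor gene Nod1 by 2.76 ± 0.34.

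On the other chromosomes, 4 of the 10 largest rises were of the Xlr5 family on the X chromosome. Xlr5a rose from 14.1, 18.9 and 9.77 normalized counts to 239.7, 250.5 and 358, a log2 fold change of 4.36 ± 0.49 (edgeR adjusted p = 4.6e-06). Xlr5b rose by 4.08 ± 0.42 and Xlr5c by 5.07 ± 0.76. DXBay18 was at 0 in all P10 libraries and at 84.6, 52.5 and 134 at P20, at least 23.6-fold higher against a floor of 3 counts per library. These genes are near-identical copies, and DXBay18, Xlr5b and Xlr5c each overlap Xlr5a in the annotation, so the split of their counts among them is uncertain.

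The other 6 of the largest rises were of dispersed genes. Slc11a1, a divalent metal transporter gene, went from 31.4, 14.5 and 26.1 to 211, 255 and 307 normalized counts and rose by 3.42 ± 0.23 (edgeR adjusted p = 6.7e-09). Ddr2, a collagen receptor kinase gene, went from 23.5, 37.8 and 54.6 to 385, 256 and 635 and rose by 3.40 ± 0.39. The 2 groups were separated by several-fold for each. Foxn4, a forkhead factor gene, had 1.57, 0 and 1.63 normalized counts at P10, no more than 3 counts in any library, and 68.1, 48.8 and 51.7 at P20. Klk10 rose by 3.84, Mybpc1, a myosin-binding protein gene, by 3.55, and Ahrr, which encodes the repressor of the aryl hydrocarbon receptor, by 3.37.

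Egr1, an immediate early transcription factor gene, fell more than any other gene named by the rule on other chromosomes. It was at 3720, 3969 and 3383 normalized counts at P10 and at 2.35, 8.87 and 12.5 at P20, a fall of 8.63 ± 0.20 on the log2 scale (edgeR adjusted p = 3.0e-15). Fos went from 3703, 3154 and 1702 to 14.1, 22.9 and 27.8 and fell by 6.93 ± 0.30. Fosb, its relative, went from 1278, 1099 and 655 to 7.05, 9.61 and 7.66 and fell by 6.87 ± 0.30. The groups were separated by more than an order of magnitude in all 3 genes.

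A list of immediate early genes, which respond within minutes to growth factors or stress, was then drawn up after these values had been seen, and it includes Egr1, Fos and Fosb. Of 16 tested members of that list 9 fell and 2 rose, with a median of -0.93, against 15.2% lower, 13.1% higher and a median of -0.02 over all tested genes. With at least 10 counts required in every library, which leaves out Egr1 and Egr2 before any test, 5 members fell. When only the 2i/LIF libraries were fitted 8 fell and 0 rose. Jun fell by 4.05 ± 0.25 and Dusp1, a phosphatase gene for MAP kinases, by 2.12 ± 0.11. Egr2 was at 47.1, 31.9 and 19.5 normalized counts at P10 and at 0 in all P20 libraries, at least 8.12-fold lower. Junb and Ier3 rose, by 1.20 ± 0.20 and 1.03 ± 0.26. Junb lies on chromosome 8. Both calls were lost when only the 2i/LIF libraries were fitted, and that of Ier3 also without any of 3 single libraries.

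Part of the list fell in the other media as well, where 9 members were lower in Serum/LIF (2.85% of all genes) and 9 in EMM (11.9%). Fosb fell by 6.49 in Serum/LIF, and the difference from 2i/LIF, -0.38, did not pass the interaction test (edgeR adjusted p = 0.57). Egr1 fell by 1.95 in Serum/LIF and by 0.70 in EMM, which differed from the fall in 2i/LIF with adjusted p of 1.2e-11 and 3.8e-13. The mean of Egr1 was 1514 normalized counts in Serum/LIF and 1079.7 in EMM at P10, both lower than in 2i/LIF. Whether handling at harvest moved these genes was not tested.

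Genes known to respond to ERK signalling, which PD03 lowers, moved in both directions. Of 18 tested members 8 fell and 4 rose (15.2% and 13.1% over all genes), with a median of -0.33, and Egr1 and Fos are on this list too. When only the 2i/LIF libraries were fitted, 4 fell and 2 rose. Dusp6, a phosphatase that restrains ERK, was at 273, 280.3 and 274 normalized counts at P10 and at 129, 161 and 94.8 at P20, and fell by 1.09 ± 0.12 (edgeR adjusted p = 2.6e-06). Spry1 and Dusp5, which also restrain the pathway, fell by 1.44 and 1.51, and the call of Dusp5 was lost with only the 2i/LIF libraries. Etv4, an ETS factor gene, rose by 1.68 ± 0.14 and Spry4 by 1.61 ± 0.16. Targets of the same pathway therefore did not move as a group.

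**Figure D4:**
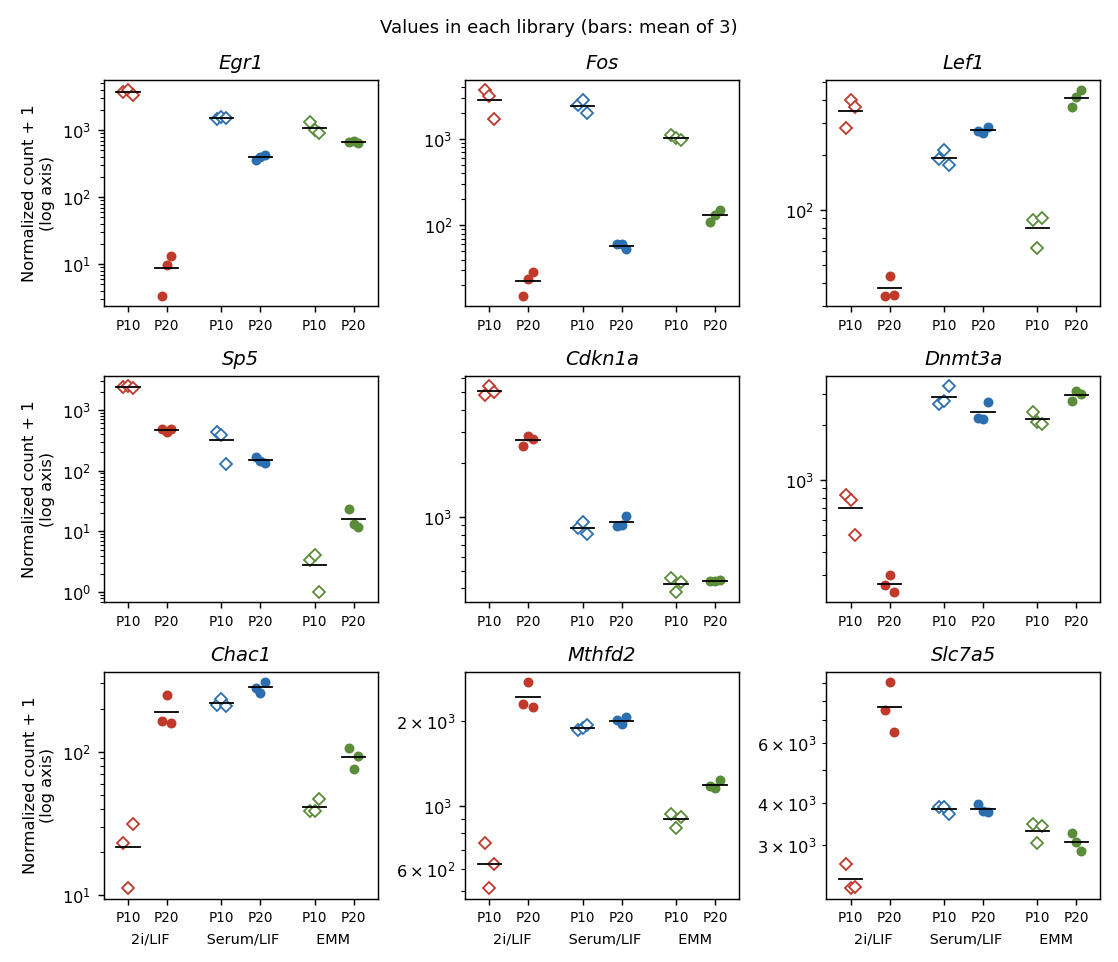
Normalized count plus 1 (vertical axis, log scale) in each library of P10 (open) and P20 (filled) for 9 genes in 2i/LIF (red), Serum/LIF (blue) and EMM (green), with the mean of 3 libraries as a bar. In 2i/LIF Egr1 drops from at least 3383 to at most 12.5, Lef1, Sp5, Cdkn1a and Dnmt3a are lower at P20 and Chac1, Mthfd2 and Slc7a5 are higher, with no overlap of the groups.

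Targets of the Wnt pathway fell in 2i/LIF. Of 13 tested members 10 were lower at P20 and 0 were higher in edgeR, against 15.2% lower and 13.1% higher over all genes. The median log2 fold change was -1.35. At an unadjusted p under 0.05, 0 were higher and 10 lower, and DESeq2 also called 0 higher. With at least 10 counts required in every library 4 fell. In EMM 6 members were higher and 2 lower (13.3% and 11.9% of all genes), and in Serum/LIF 1 was higher and 0 lower (3.16% and 2.85%). The RefSeq promoter of Sp5, from 250 bases before to 50 after the start (GRCm38.p6, the mm10 build, chr2:70474673-70474972, plus strand), is shown because Sp5 is a direct Wnt target among the members that fell most, with the T cell factor core motif CTTTGA in capitals.
Sp5: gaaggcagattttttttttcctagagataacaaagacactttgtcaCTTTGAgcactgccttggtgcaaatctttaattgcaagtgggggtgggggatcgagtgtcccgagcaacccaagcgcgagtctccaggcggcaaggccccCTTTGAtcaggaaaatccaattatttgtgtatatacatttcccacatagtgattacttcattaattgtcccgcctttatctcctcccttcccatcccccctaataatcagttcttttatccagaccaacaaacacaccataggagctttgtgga
The motif was searched on both strands and occurs at 2 positions of this window. Of all 32841 RefSeq promoter windows 16% hold it, and of 14 windows of the 9 list members found there 4 do (28.6%), those of Dkk1, Lef1, Sp5 and T. A match is a description of these letters.

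Sp5, a repressor that is itself induced by beta-catenin, was at 2354, 2467 and 2345 normalized counts at P10 and at 482, 430.0 and 492 at P20. It fell by 2.36 ± 0.26 (edgeR adjusted p = 1.5e-06). Lef1, a DNA-binding partner of beta-catenin, went from 279, 399 and 367 to 32.9, 42.9 and 33.5 and fell by 3.22 ± 0.18. Axin2, the feedback inhibitor used as a readout of the pathway, went from 3257, 4151 and 3782 to 1238, 1578 and 1569 and fell by 1.34 ± 0.17. None of these groups overlapped. T (Brachyury), a mesoderm factor, fell by 2.84 ± 0.31, Notum, a secreted Wnt inhibitor, by 1.69 ± 0.15, and Ccnd2, the cyclin D2 gene, by 1.45 ± 0.29, of which the call of Ccnd2 was lost when only the 2i/LIF libraries were fitted. The factor gene Tcf7 had -0.34 ± 0.16 and Nkd2 0.44 ± 0.59. Axin2 stayed well above Serum/LIF, where its mean was 377 normalized counts at P10 and 450.2 at P20, and its fall differed from Serum/LIF by -1.59 (adjusted p = 0.00014).

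Genes of the integrated stress response, in which ATF4 drives amino acid transport and synthesis, rose. Of 17 tested members 13 were higher at P20 and 0 lower, against 13.1% higher and 15.2% lower over all genes, with a median of 1.06. At an unadjusted p under 0.05, 15 were higher and 0 lower, and DESeq2 called 0 lower. Leaving out the 3 members on chromosomes 6 and 8 gave a median of 1.04. In Serum/LIF 1 was higher and 1 lower (3.16% and 2.85% of all genes), and in EMM 6 were higher and 3 lower (13.3% and 11.9%). The RefSeq promoters of Chac1 (chr2:119350992-119351291, plus strand) and Trib3 (chr2:152344011-152344310, minus strand), both GRCm38.p6, are shown because they hold the composite C/EBP-ATF motif TGATGNAA, in capitals as its reverse complement.
Chac1: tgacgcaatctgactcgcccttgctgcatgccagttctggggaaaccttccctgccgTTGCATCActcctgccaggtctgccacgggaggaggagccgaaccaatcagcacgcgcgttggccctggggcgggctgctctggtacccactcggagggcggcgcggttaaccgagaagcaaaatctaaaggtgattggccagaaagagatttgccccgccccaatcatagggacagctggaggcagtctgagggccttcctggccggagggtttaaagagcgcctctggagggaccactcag
Trib3: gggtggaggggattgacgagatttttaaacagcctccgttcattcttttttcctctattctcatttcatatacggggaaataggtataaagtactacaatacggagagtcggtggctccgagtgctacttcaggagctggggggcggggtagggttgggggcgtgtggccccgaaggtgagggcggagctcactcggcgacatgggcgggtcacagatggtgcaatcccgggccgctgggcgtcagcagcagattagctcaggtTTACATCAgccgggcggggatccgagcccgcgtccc
Both strands were searched. The motif is in 3.97% of all promoter windows and in 5 of 19 windows (26.3%) of the 16 list members found in RefSeq, those of Asns, Chac1, Slc7a11, Trib3 and Vldlr. Of these 5 genes Chac1, Slc7a11 and Trib3 passed the test, and the call of Slc7a11 was lost without replicate 2 of either passage, without both replicate 1 libraries and when only the 2i/LIF libraries were fitted.

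Mthfd2, a mitochondrial folate enzyme gene on chromosome 6, was at 736, 509.8 and 624 normalized counts at P10 and at 2298, 2743 and 2236 at P20. It rose by 1.96 ± 0.10 (edgeR adjusted p = 3.7e-10), far beyond the median of its chromosome. Chac1, which degrades glutathione, went from 22.0, 10.2 and 30.1 to 162, 249 and 158 and rose by 3.12 ± 0.26. Slc7a5, an importer of large neutral amino acids encoded on chromosome 8, went from 2637, 2236 and 2260.3 to 7486, 9048 and 6480.1 and rose by 1.69 ± 0.10. The serine synthesis gene Psat1 rose by 1.33 ± 0.07, the pseudokinase gene Trib3 by 1.92 ± 0.15 and Atf4 itself by 0.96 ± 0.06. Asns, the asparagine synthetase gene of chromosome 6, had 0.09 ± 0.07, and Sesn2 had -0.13 ± 0.07. At P10 the 2i/LIF mean of Mthfd2 lay below that of Serum/LIF, 1896 normalized counts, and at P20 it lay above the 2007 of Serum/LIF.

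Of 20 tested enzymes and regulators of cholesterol synthesis 12 rose and 0 fell, against 13.1% and 15.2% of all genes, with a median of 0.38. When only the P10 and P20 libraries of 2i/LIF were fitted, 5 rose. In Serum/LIF 0 rose and 6 fell (3.16% and 2.85% of all genes), and in EMM 4 rose and 1 fell (13.3% and 11.9%). At an unadjusted p under 0.05, 15 were higher and 0 lower in 2i/LIF, and DESeq2 called 0 lower. The log2 fold change differed between 2i/LIF and Serum/LIF for 17 of the 20 (20% of all genes). Msmo1, a sterol oxidase gene of chromosome 8, went from 1808, 1249 and 1181 to 3663, 2917 and 2919.6 normalized counts and rose by 1.17 ± 0.13 (edgeR adjusted p = 1.4e-06).

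Among 23 tested p53 targets and apoptosis genes 8 fell, against 15.2% of all genes, and 3 rose, a share near the 13.1% of all genes, with a median of -0.32. The other 12 did not pass the test, and 4 fell and 0 rose when only the 2i/LIF libraries were fitted. Cdkn1a, the p21 inhibitor of cyclin-dependent kinases, was at 4830, 5402 and 4988 normalized counts at P10 and at 2490.5, 2853 and 2738 at P20, and fell by 0.91 ± 0.08 (edgeR adjusted p = 1.5e-07). Trp53inp1 fell by 1.34 ± 0.13, Ccng1 by 0.85 ± 0.09 and Mdm2, the ligase that degrades p53, by 0.55 ± 0.09. The groups did not overlap for any of the 4, and the call of Mdm2 was lost when only the 2i/LIF libraries were fitted. Trp53 itself had -0.05 ± 0.08. Bak1 and Bid, which act in cell death, were among the members that rose, and Bid lies on chromosome 6. Both calls were lost when only the 2i/LIF libraries were fitted, and that of Bid also without any of 4 single libraries. Cdkn1a was lower in Serum/LIF, at a mean of 869.9 normalized counts at P10, and its fall differed from the log2 fold change of 0.11 there (adjusted p = 7.1e-06).

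The G1 cyclins and inhibitors of cyclin-dependent kinases gave 5 higher and 3 lower of 15, where all genes gave 13.1% and 15.2%. Ccne1 and Ccne2, the E-type cyclins of S phase entry, rose by 0.78 and 0.83. Cdkn1c, a CDK inhibitor gene that is also imprinted, fell by 0.96, and Cdkn1a and Ccnd2 fell by the values above. When only the 2i/LIF libraries were fitted, 3 were higher and 1 lower, and the calls of Cdkn1c and Ccnd2 were lost.

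Naive pluripotency factors moved in both directions, and among core factors more rose than fell in the main fit. Of 20 naive factors 5 rose and 2 fell, with a median of -0.03, and of 8 core factors 4 rose and 1 fell, with a median of 0.27 (13.1% higher and 15.2% lower over all genes). When only the 2i/LIF libraries were fitted, 3 naive factors and 0 core factors rose, and the calls of Nanog, Sall4 and Utf1 were lost. Pou5f1 (Oct4) was at 19044, 16296 and 15069 normalized counts at P10 and at 18808, 17227 and 17469 at P20, with overlapping groups and a log2 fold change of 0.09 ± 0.09. Sox2 went from 5379, 5609 and 5505 to 3193, 3875 and 3419 and fell by 0.65 ± 0.07 (edgeR adjusted p = 1.2e-06). Nanog, on chromosome 6, went from 6490.4, 7588 and 8518 to 9260, 10526 and 12697 and rose by 0.52 ± 0.11. Sall4 rose by 0.34 ± 0.08, whereas Esrrb (-0.07 ± 0.07), Klf4 (-0.21 ± 0.17) and Tbx3 (0.27 ± 0.08) did not pass the test. With the replicate number as a block the edgeR adjusted p of Tbx3 was 0.0070.

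Single members of these lists moved further. Tdgf1, a co-receptor for Nodal, went from 1667, 1489 and 1425 to 5789, 6492 and 6768 normalized counts and rose by 2.06 ± 0.08 (edgeR adjusted p = 1.1e-11). Nr0b1, an orphan nuclear receptor gene, went from 1234, 1159 and 1159.9 to 355, 405 and 346 and fell by 1.68 ± 0.11. Utf1 rose by 1.03 ± 0.20 and Gbx2 fell by 1.46. In Serum/LIF Gbx2 rose, by 1.27.

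Genes of the formative and primed epiblast, the stages after naive pluripotency, gave 2 higher and 7 lower of 19 (13.1% and 15.2% over all genes), and 0 and 4 when only the 2i/LIF libraries were fitted. Lef1, Lefty1 (2.45), Fst (2.10) and Zic2 (1.60) fell. Fgf5, the defining gene of the primed state, was at 4.71, 8.71 and 2.44 normalized counts at P10 and at 0 in all P20 libraries, at least 1.31-fold lower. Krt18 rose by 1.19 ± 0.27 and Otx2 by 1.10. The calls of Fgf5, Otx2 and Krt18 were each lost without 1 or more single libraries.

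**Figure D5:**
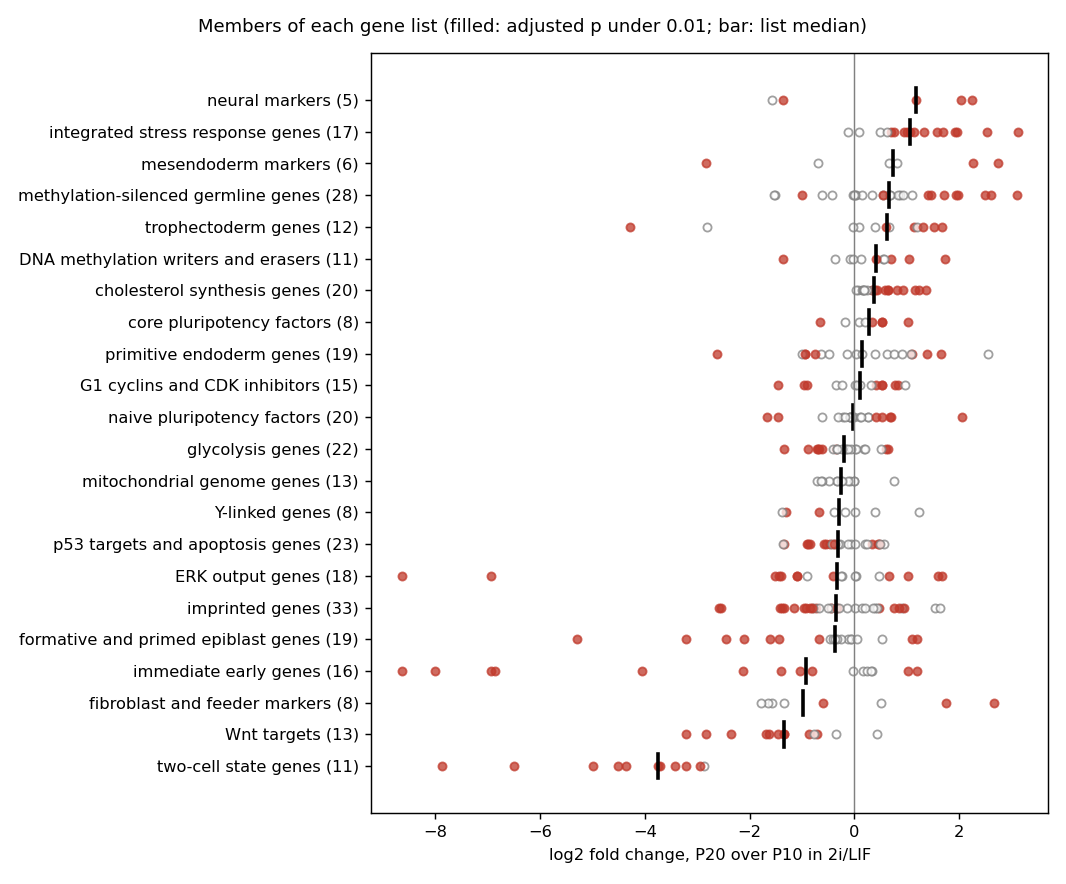
Log2 fold change in 2i/LIF, P20 over P10 (horizontal axis), of every tested member of each gene list (rows, number tested in brackets), filled where the edgeR adjusted p is under 0.01, with the median of the list as a bar. The lists for the 2-cell state and Wnt targets have the lowest medians, -3.76 and -1.35, and the stress response list lies at 1.06; genes on several lists appear in each.

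Of 11 tested genes on a list of writers and erasers of DNA methylation and their cofactors 4 rose, 1 fell and 6 did not pass the test (13.1% higher and 15.2% lower over all genes). The median was 0.41. Trim28, neither a writer nor an eraser, is on the list and rose by 0.41. When only the 2i/LIF libraries were fitted, 2 rose and the call of Trim28 was lost. Dnmt3a, a de novo methyltransferase gene, was at 827, 771 and 495 normalized counts at P10 and at 261, 298 and 239 at P20, and fell by 1.37 ± 0.16 (edgeR adjusted p = 4.2e-06). Tet2, which oxidises methylated cytosine, went from 458, 476 and 816 to 1873, 1958 and 2083 and rose by 1.74 ± 0.18. Neither pair of groups overlapped. Uhrf1, which recruits Dnmt1 to replicated DNA, rose by 0.70 ± 0.08, while Dnmt1 had 0.13 ± 0.06 and Dnmt3b -0.36 ± 0.13. Dnmt3l, the cofactor without catalytic activity, rose by 1.05 ± 0.28, a call lost without any of 4 single libraries.

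Of 28 germline genes that are commonly silenced by promoter methylation, 9 rose and 1 fell, with a median of 0.66 (13.1% higher and 15.2% lower over all genes). With at least 10 counts required in every library, which leaves out Magea5 before any test, 5 rose. Beside Tuba3a, Fkbp6 rose by 1.71, Syce1 by 1.47 and Rhox5 by 1.40. Asz1, a piRNA pathway gene, rose by 2.62. Magea5 was at no more than 3 counts in each P10 library and at 18.8, 18.5 and 57.5 normalized counts at P20, and its call was lost without replicate 3 of either passage. Tdrd12, of the same pathway, fell by 1.00 ± 0.14, and Dazl, a marker of this class, had 0.33 ± 0.26 with overlapping groups. DNA methylation itself was not measured in these libraries.

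Of 33 tested imprinted genes 13 fell, against 15.2% of all genes, and 4 rose, near the 13.1% of all genes, with a median of -0.34. When only the 2i/LIF libraries were fitted, 8 fell and 0 rose, without the calls of Peg10 and Mest. Meg3, the noncoding RNA of the Dlk1-Dio3 cluster, went from 6908, 8476 and 8672 normalized counts to 3466, 4048 and 3375 and fell by 1.14 ± 0.09 (edgeR adjusted p = 7.4e-08). Phlda2, a growth regulator of the placenta, fell by 2.58 ± 0.32, and Peg10, on chromosome 6, by 1.34 ± 0.24. Mest of chromosome 6 rose by 0.86 ± 0.16, and Peg12 had the largest rise among called members, 0.94 ± 0.27. The call of Peg12 was lost in DESeq2, under the replicate block (edgeR adjusted p = 0.021) and without any of 5 of the 6 single libraries. H19 and Igf2 were at no more than 10.5 normalized counts in any 2i/LIF library, with log2 fold changes of -0.34 ± 1.17 and 0.92 ± 1.35.

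Genes of the 2-cell-like state, in which a few ESCs of a culture switch on transcripts of the early embryo, had the lowest median of all lists, -3.76. Of 11 tested members 10 fell and 0 rose in edgeR, against 15.2% and 13.1% of all genes. With at least 10 counts required in every library 0 fell, but that filter leaves out members near 0 at P20, such as Zscan4c and Zscan4b, before any test. At an unadjusted p under 0.05, 0 were higher and 11 lower, and DESeq2 called 0 higher. Zscan4c was at 61.2, 102 and 212 normalized counts at P10 and at 0, 0.739 and 9.58 at P20, and fell (adjusted p = 0.00015). Zscan4f went from 155, 132 and 424 to 11.7, 1.48 and 21.1 and fell by 4.51 ± 0.65. Replicate 3 held the highest value at P10 in both genes. Zscan4b was at 0 in all P20 libraries, at least 7.06-fold lower, a call lost without any of 3 single libraries. The Zscan4 and Usp17l members are near-identical copies, so how their counts were split is uncertain and they are not independent of each other. All 11 members differed in log2 fold change from Serum/LIF (20% of all genes), where 0 were lower (2.85%).

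The remaining largest falls on other chromosomes were of genes with distinct roles. Pde10a, a cyclic nucleotide phosphodiesterase gene, went from 143, 218 and 138 normalized counts to 7.05, 5.17 and 4.79 and fell by 4.92 ± 0.35 (edgeR adjusted p = 1.4e-08). Akap6, an anchor for protein kinase A, fell by 4.80 ± 0.43. Sptlc3, a subunit gene of serine palmitoyltransferase, went from 83.2, 155 and 136 to 2.35, 2.96 and 0 and was at 0 in all libraries of Serum/LIF and EMM. Kcna2, a potassium channel gene, was at 69.1, 121 and 160.5 at P10 and at 0, 1.48 and 0 at P20, no more than 3 counts in each P20 library, and Zscan4a was at that floor too.

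Of 22 tested glycolysis genes 7 fell and 2 rose, with a median of -0.20, where 15.2% of all genes were lower and 13.1% higher. When only the 2i/LIF libraries were fitted, 3 fell and 0 rose. Ldhb, a lactate dehydrogenase subunit gene of chromosome 6, went from 12486, 11761 and 12929 normalized counts to 4934, 5625 and 4036 and fell by 1.35 ± 0.12 (edgeR adjusted p = 1.7e-07). Slc2a3, the glucose transporter GLUT3 gene of the same chromosome, fell by 0.62 ± 0.08. These falls ran against the shift of chromosome 6. Hk2, also on chromosome 6, had the largest rise, 0.65 ± 0.16, with overlapping groups and a call lost without any of 4 single libraries. Of 13 listed genes of the mitochondrial genome 0 passed the test in edgeR, with 1 higher and 2 lower at an unadjusted p under 0.05, and DESeq2 called 0 in either direction. Of all 15 tested genes of that genome 1 was higher and 0 lower. Over the alternative settings 0 to 5 of the 13 were lower. With the replicate number as a block 3 were lower.

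Markers of other lineages gave no common direction. Cdx2, a trophectoderm factor that Wnt signalling can also induce, went from 224, 269 and 298 normalized counts to 9.40, 15.5 and 13.4 and fell by 4.28 ± 0.27 (edgeR adjusted p = 2.1e-09), while 5 of 12 trophectoderm genes rose (13.1% of all genes), 2 when only the 2i/LIF libraries were fitted, among them the keratin gene Krt8 (1.52 ± 0.18). The summed level of the 6 fixed trophectoderm markers was 367 to 420 at P10 and 143 to 253 at P20, and Elf5 and Hand1 stayed below 10 in every library. Of 19 primitive endoderm genes 3 rose and 4 fell, near the 13.1% and 15.2% of all genes. Col4a1, a basement membrane collagen gene of chromosome 8, rose by 1.66 ± 0.24, Sox17 fell to no more than 3 counts in each P20 library, and Gata6 was at no more than 5.75 normalized counts in any library.

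Tubb3, a neuronal tubulin gene on chromosome 8, went from 374, 276 and 286 normalized counts to 1553, 1399 and 1468 and rose by 2.25 ± 0.10 (edgeR adjusted p = 5.1e-11). It made up most of the neural marker sum, which was 299 to 403 at P10 and 1495 to 1619 at P20, and Pax6 stayed below 10 throughout. Sox1 of chromosome 8 rose by 2.04 ± 0.29 and Map2 fell by 1.36 ± 0.28, a call lost when only the 2i/LIF libraries were fitted. Among mesendoderm markers Kdr and Gsc rose, by 2.74 and 2.26, T fell as given above, and Mesp1 was at 0 in all 6 libraries. Of 8 tested fibroblast and feeder markers 2 rose, Col1a1 and Thy1, and 1 fell (13.1% and 15.2% of all genes), with a median of -0.98, and 0 rose without replicate 3 of P10. The summed fibroblast markers were at 45.02 to 66.0 at P10 and at 91.6 to 98.7 at P20, with Dcn at 0, Col1a1 higher by 2.66 ± 0.55, a call lost without replicate 3 of P10 and without both replicate 1 libraries, and Vim, which ESCs express, lower by a log2 fold change of -0.60 ± 0.16, a call lost without any of 4 single libraries. The part of such cells in the other changes was not tested.

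Y-linked genes were present in all 6 libraries. Ddx3y was at 1612, 1526 and 1646 normalized counts at P10 and at 1708, 1425 and 1714 at P20, a log2 fold change of 0.02 ± 0.11. Of 8 tested Y-linked genes 2 fell (15.2% of all genes), Zfy1 by 1.30 ± 0.34 and Uba1y by 0.68, and these calls were lost without any of 3 and of 4 single libraries. The call of Uba1y was also lost under each of the 3 other scalings.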

How the data were processed

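RNA was sequenced from E14tg2a ESCs with a directional library kit, per the labels. The authors deposited 1 table of estimated counts per gene; the submitters' processing notes name STAR, Salmon, DESeq2 and mm10 without roles, the study describes alignment with STAR and counting with HTSeq, and the annotation and strand setting are not given in the sources used here. Of the deposited values 9.982% were not whole, and all were rounded. Columns were matched to samples by name.

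Counts were tested with edgeR 4.0.16 in R 4.3.3 (TMM, filterByExpr, quasi-likelihood test, 6 groups in 1 model, Benjamini-Hochberg adjustment). Calls used an adjusted p under 0.01, with an absolute log2 fold change above 1 for counts over all genes and on chromosomes, and with no fold threshold for members of lists. Normalized counts are scaled to the mean effective library size of 15604368. Values per library of chromosome medians use log2 CPM with a prior count of 2. Positions come from GENCODE M21 (mm10). Totals from 6944918 to 21090069 limit what can be said of genes under 3 counts per library. DESeq2 1.42.0 served as an alternative, and figures used matplotlib 3.10.9. The fit was tested on simulated counts.

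The chromosomes and gene lists were chosen with earlier results of these data known. Named genes were the 10 largest rises and falls on other chromosomes and the 5 largest on chromosomes 6 and 8 among called genes with at least 50 normalized counts in a group and no overlap between groups, leaving out unnamed models and pseudogenes, the most abundant genes of both chromosomes not past the fold, and defining members and extremes of each list. Further list members were named after their values were seen. Values of some genes that the rule names are not reported here.

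Replicates with the same number deviated together in 2i/LIF (correlations across genes of 0.30, 0.13 and 0.22). In the other media no correlation exceeded 0.1. No label states a pairing, and both replicate 1 libraries of 2i/LIF also had a low mitochondrial share. The p-values and SE given are from the fit without pairing unless the replicate block is named. No 2 replicates agreed within sampling noise. P-values measure the spread between these samples.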

Additional observations from a re-analysis of the deposited data

Results flagged for a closer look

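The log2 fold change of P20 over P10 differed between 2i/LIF and Serum/LIF for 1496 genes and between 2i/LIF and EMM for 2654 genes, by the interaction test in edgeR with a difference above 1 and an adjusted p under 0.01. Of the genes named by the rule, 7 passed the thresholds in opposite directions in 2i/LIF and EMM. The difference between 2i/LIF and EMM was 5.64 for Klk10 (3.84 against -1.80), 4.05 for Cpe (2.39 against -1.66) and 2.20 for Dnmt3l (1.05 against -1.15), which were higher at P20 in 2i/LIF and lower in EMM. It was -9.70 for Kcna2 (-7.16 against 2.54), -6.46 for Adgrg5 (-3.87 against 2.58), -5.31 for Rasd2 (-2.90 against 2.41) and -3.43 for Ccnd2 (-1.45 against 1.98), which were lower in 2i/LIF and higher in EMM. Kcna2 was at no more than 3 counts in each P20 library of 2i/LIF, so its fitted value depends on the model.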

How the results depend on the processing

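The counts over all genes, over chromosomes 6 and 8 and over the other chromosomes kept their order of higher and lower genes, and no named gene reversed, under the alternatives tried. Counts over lists did not all keep it: the core factors went from 4 higher and 1 lower to 0 and 1 with only the groups compared. Requiring at least 10 counts in every library, which leaves 11166 genes, gave 296 higher and 468 lower genes, 72 and 23 on chromosomes 6 and 8, 224 and 445 elsewhere. Fitting only the groups compared gave 327 and 650, 67 and 40, 260 and 610. With no threshold on the fold change the counts were 2111 and 2435, 478 and 113, 1632 and 2322, and 3216 and 5190 genes differed from Serum/LIF and EMM. The median of chromosome 8 was 0.35 with TMM on genes outside chromosomes 6 and 8, 0.22 with no filter, 0.34 with at least 10 counts in every library or only the groups compared, 0.37 without both replicate 1 libraries and 0.36 for genes with at least 100 normalized counts. The latter 2 were chosen after seeing the data. Without a filter the medians of chromosome 6 and of the other chromosomes were 0. Leaving out single libraries gave 0.30 to 0.40 on chromosome 8 and 0.13 to 0.22 on chromosome 6, 436 to 676 higher and 890 to 1163 lower genes. The replicate block gave 580 and 1074. Of 5309 refits of 364 named genes and list members, 4967 stayed on the same side of the threshold, called or not, 228 lost a call and 114 gained one. With at least 10 counts in every library 0 members of the 2-cell list and 4 Wnt targets fell. That filter leaves out members near 0 in any library before they are tested, so these counts do not repeat the test on the same genes. With only the groups compared 5 cholesterol genes rose and 4 p53 list members and 8 imprinted genes fell. The block dropped the calls of Gnas, Ascl2, Usp17ld, Hnf4a, Esx1 and Peg12 and added others, among them Tbx3, Gm8730, Cdkn1b and 3 mitochondrial genes. Why calls were lost was not tested. Counts under 3 per library and the shallowest library, replicate 1 at P20, limit the precision for low genes.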
